A study of Homo sapiens with 6 samples.

Results

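FOXO1, FOXO3, FOXO4, CITED1, CITED2, CITED4 and BCL6 are 7 transcription regulators that were followed on the arrays of SALL4-depleted lung cancer cells. They were taken from the 18404 genes that the deposited table measures with a probe set of a single gene symbol, and each of the 7 had exactly 1 such probe set. H661 cells are an established line derived from a large cell carcinoma of the human lung. In the SALL4-sh group (3 arrays) the cells received a lentiviral short hairpin RNA against SALL4, and in the Scr-sh group (3 arrays) a scrambled hairpin from the same type of vector. Both groups were therefore transduced, and per the labels both grew in RPMI with 10% serum. SALL4-sh stands for 1 hairpin in 1 cell line, so that loss of SALL4 and other effects of this hairpin cannot be told apart. The labels do not say whether the 3 arrays within a group stem from separate cultures, and the study's methods speak of independent experiments only in general, so the p-values here reflect only how far these arrays differ, which can be technical.

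The 7 genes belong to 3 connected systems. FOXO proteins are forkhead transcription factors that switch on genes of cell cycle arrest, apoptosis, oxidant defence and metabolism. When growth factor receptors activate PI3 kinase, AKT phosphorylates FOXO proteins, and adaptor proteins of the YWHA family hold them in the cytoplasm. CITED proteins do not bind DNA and act through the acetyltransferases CBP and p300. CITED2 competes with HIF1A for them and is itself induced by hypoxia. BCL6 is a zinc finger repressor, best known from germinal centre B cells, that recruits corepressors such as BCOR and is itself a target of FOXO factors.

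SALL4 RNA, the target of the hairpin, was lower on each SALL4-sh array than on each Scr-sh array. Its normalized intensity averaged 120 ± 13.8 with the scrambled hairpin and 30.7 ± 3.72 with the SALL4 hairpin (SD, n = 3 each) (adjusted p = 0.000644 from limma; exact two-sided permutation p = 0.1, the smallest that 3 against 3 arrays allow). The deposited values are linear intensities in which every value below 8 stands at 8, and this floor held 38.8% to 40.4% of the probe sets of an array. Of the carcinoma and epithelial markers, EPCAM was measured well above the floor on every array, KRT18 lay between 28.8 and 76.7, KRT8 lay at or near the floor, and CLDN4 stood at it throughout. KRT19 lay between 10.2 and 15.0, close to the floor. CDH1, which encodes E-cadherin, rose from 9.07 ± 1.31 to 16.9 ± 0.657 (SD, n = 3 each), the one epithelial marker that passed limma. CDH1 stood at the floor on Scr-sh replicate 2 and near it on the other Scr-sh arrays, so the floor limits the size of this rise. NKX2-1, the lung lineage factor, lay between 11.6 and 16.8, close to the floor. All 4 endothelial markers stood at the floor on all 6 arrays. So did PTPRC, CD3E and LYZ of the 5 leukocyte markers measured, while CD14 lay between 8 and 9.99 and NKG7 between 24.1 and 35.5. The summed intensity of the 6 mesenchymal markers was 1559 to 1974 in Scr-sh and 1217 to 1426 in SALL4-sh, most of it VIM, whose groups overlapped. COL1A2 passed limma and fell by 0.79 on the log2 scale, COL3A1 had a log2 difference of 0.24 with overlapping groups, and DCN stood at the floor. The part of these markers in the results below was not tested.

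CITED2 and BCL6 were the genes whose SALL4-sh values all lay below their Scr-sh values, and the sequence just upstream of each gene is given for that reason. These are the 250 bases before the most upstream start that RefSeq lists, read 5′ to 3′ on the gene's own strand (build GRCh38.p14; CITED2 at chr6:139374649-139374898 and BCL6 at chr3:187745469-187745718, both on the minus strand). The capitals mark ACGTG, the core of the hypoxia response element, on either strand.
CITED2: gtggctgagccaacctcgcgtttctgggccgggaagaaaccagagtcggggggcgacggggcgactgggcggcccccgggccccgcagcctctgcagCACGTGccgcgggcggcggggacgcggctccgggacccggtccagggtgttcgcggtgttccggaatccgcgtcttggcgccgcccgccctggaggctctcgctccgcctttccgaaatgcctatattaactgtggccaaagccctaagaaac
BCL6: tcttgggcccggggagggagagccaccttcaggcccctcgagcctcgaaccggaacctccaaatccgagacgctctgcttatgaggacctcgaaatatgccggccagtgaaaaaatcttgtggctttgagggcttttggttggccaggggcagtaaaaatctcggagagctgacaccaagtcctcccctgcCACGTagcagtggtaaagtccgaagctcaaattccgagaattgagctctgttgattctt
In CITED2 the 2 matches overlap in 1 palindrome, and in BCL6 the match lies on the opposite strand. Counting every listed start, and 50 bases after it, ACGTG was found in 5 of 15 promoters of the 7 genes and in 21.4% of all 35116 promoters. The forkhead core GTAAACA was found in 1 of the 15, a promoter of FOXO4, and in 3.42% of all promoters. Some promoters of FOXO3, of CITED1 and of CITED2 overlap, so the 15 are not separate sequences. In FOXO3, 1 ACGTG match was counted in more than 1 promoter. With the 50 bases after the start included, the CITED2 promoter shown held 69.3% G and C and the BCL6 promoter 53%, where the median of all promoters was 58.7%. A match describes these letters only.

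The 7 genes were selected on gene family and on their measured intensities in SALL4-sh against Scr-sh, so these values are given as a description, with no test. For 2 of the 7, CITED2 and BCL6, the highest SALL4-sh value stayed under the lowest Scr-sh value. The opposite held for 0, and the groups overlapped for the other 5. Among all 13803 genes tested, 28.9% had groups that did not overlap, 13.1% with SALL4-sh below Scr-sh and 15.7% with it above. As the choice of members used this contrast, nothing is read from these shares. All 7 genes passed the filter on dim genes, which left out the lowest 25% by mean intensity, although FOXO3 and FOXO4 lay at the 35.3rd and 36.7th percentile.

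**Figure D1:**
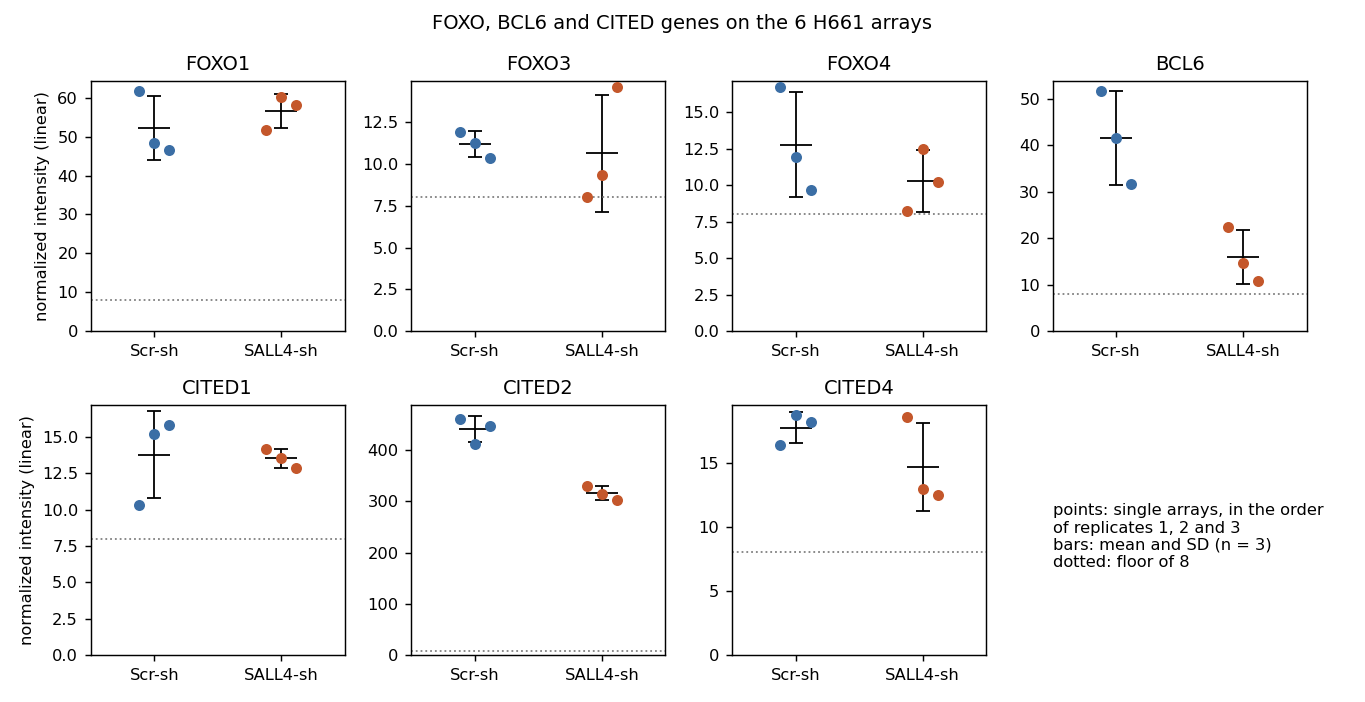
Normalized intensity (linear scale) of the 7 genes on each of the 6 H661 arrays. Each point is 1 array, bars with whiskers give group mean and SD (n = 3), and a dotted line marks the floor at 8. The groups are apart for CITED2 (means 441 and 316) and BCL6 (41.6 and 15.9) and overlap for the other 5 genes.

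BCL6 had the largest difference of the 7. Its intensity was 51.7, 41.5 and 31.6 on the Scr-sh arrays and 22.4, 14.6 and 10.8 on the SALL4-sh arrays. The lowest Scr-sh value and the highest SALL4-sh value were 9.18 intensity units apart, and no value stood at the floor. In RNA from whole cultures, fewer cells with a transcript and less transcript per cell cannot be told apart. The means were 41.6 ± 10.1 (SD, n = 3) and 15.9 ± 5.89 (SD, n = 3), a log2 difference of -1.42 (standard error 0.35, and 0.28 in the filtered fit used for the lists), or a level 2.67-fold lower in SALL4-sh. With each array left out in turn the log2 difference ran from -1.70 to -1.17. Of the log2 differences of all genes tested, 1.09% were as low as that of BCL6 or lower.

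Among the CITED genes, CITED2 stood apart between the groups. CITED2, which limits the response to hypoxia by occupying p300, had intensities of 462, 413 and 448 in Scr-sh and of 330, 314 and 304 in SALL4-sh. The groups lay 83.2 intensity units apart, and the SD was 25.2 in Scr-sh and 13.2 in SALL4-sh (n = 3 each). Its SALL4-sh mean lay 28.3% below its Scr-sh mean, a log2 difference of -0.48 (standard error 0.06, and 0.15 in the filtered fit). This is a smaller difference than that of BCL6, and 11.1% of all genes tested had a difference as low or lower. After cyclic loess normalization the log2 difference of CITED2 was -0.59.

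CITED4, a coactivator of TFAP2 factors, had intensities of 16.3, 18.7 and 18.2 in Scr-sh and of 18.6, 12.9 and 12.5 in SALL4-sh. SALL4-sh replicate 1 lay among the Scr-sh values and the other 2 SALL4-sh arrays below them. The log2 difference was -0.30 (standard error 0.18), and -0.48 without SALL4-sh replicate 1. CITED1, which is best known from kidney progenitors and melanocytes, had 10.3, 15.2 and 15.8 in Scr-sh and 14.2, 13.6 and 12.9 in SALL4-sh. Its SALL4-sh values all fell inside the range of the Scr-sh values. The log2 difference was 0.00 when rounded (-0.000633, standard error 0.19), and it ran from -0.20 to 0.11 with 1 array left out. It was positive without Scr-sh replicate 2, Scr-sh replicate 3 or SALL4-sh replicate 3 and negative without any of the other 3 arrays.

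None of the 3 FOXO genes had groups that stood apart. FOXO1, a main effector of insulin signaling, had intensities of 61.6, 48.5 and 46.6 in Scr-sh and of 51.8, 60.2 and 58.1 in SALL4-sh. The highest value of all 6 was that of Scr-sh replicate 1. The means were 52.2 ± 8.17 (SD, n = 3) and 56.7 ± 4.37 (SD, n = 3), a log2 difference of 0.13 (standard error 0.13) that was 0.25 without that array.

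FOXO4, the FOXO gene on the X chromosome, had 16.7, 11.9 and 9.67 in Scr-sh and 8.23, 12.5 and 10.2 in SALL4-sh. Scr-sh replicate 1 again lay above all the rest, and the other 5 values were mixed between the groups. The log2 difference of -0.29 (standard error 0.27) was -0.08 without that array.

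FOXO3, which is widely studied in longevity and tumor suppression, had 11.9, 11.3 and 10.4 in Scr-sh and 8, 9.31 and 14.6 in SALL4-sh on its own probe set. SALL4-sh replicate 1 stood at the floor, and SALL4-sh replicate 3 was the highest of the 6. The log2 difference was -0.12 (standard error 0.25), -0.37 without SALL4-sh replicate 3 and 0.06 without SALL4-sh replicate 1. A further probe set is listed under both FOXO3 and its near copy FOXO3B. It gave 290, 303 and 304 in Scr-sh and 270, 319 and 257 in SALL4-sh, and reads neither gene alone. Here too the groups overlapped, with a log2 difference of -0.09.

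**Figure D2:**
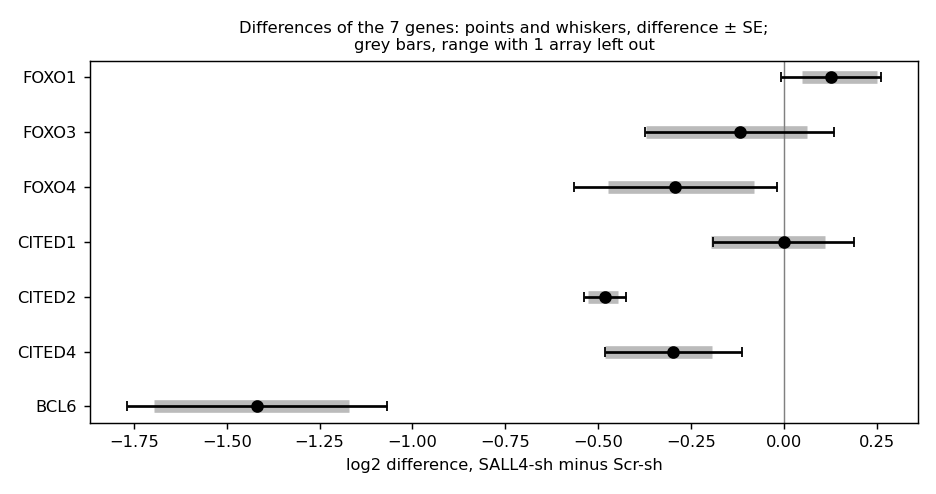
Log2 difference of the 7 genes, SALL4-sh minus Scr-sh. Points and whiskers are the difference and its standard error from the fit with no filter (n = 3 arrays per group), and grey bars are the range with each array left out in turn. The bars of BCL6 (-1.70 to -1.17), CITED2 (-0.53 to -0.45), CITED4 and FOXO4 lie below 0, that of FOXO1 above 0 (0.05 to 0.25), and those of FOXO3 and CITED1 cross it.

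The genes also differed in how the arrays of a group were ordered. Within Scr-sh, replicate 1 had the highest value of all 3 FOXO genes, of CITED2 and of BCL6, and the lowest of CITED1 and CITED4. Within SALL4-sh, replicate 1 had the lowest value of the 3 FOXO genes and the highest of the 3 CITED genes and of BCL6. Each pattern rests on 3 arrays and is a description. The genes whose log2 values correlated best with those of CITED2 over the 6 arrays were RECK (Pearson's r = 0.998), POLR1D (0.997) and RPS16 (0.997). For BCL6 they were RPL35A (0.998), GSTK1 (0.997) and PLVAP (0.992). RECK, an inhibitor of matrix metalloproteinases, had intensities of 69.5, 44.6 and 57.0 in Scr-sh and of 17.2, 15.8 and 12.6 in SALL4-sh. For FOXO1 they were MOGAT3 (0.993), SPRING1 (0.993) and ILK (0.980). ILK, the integrin-linked kinase, repeated the high value of Scr-sh replicate 1, with 322, 173 and 174 in Scr-sh and 215, 288 and 249 in SALL4-sh. These correlations run over 6 arrays in 2 groups that share 1 contrast, and the genes were picked as the best of 13803.

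The neighbours of the 7 genes were then examined in lists written from general knowledge, with earlier results of these data known. The shares of these lists are therefore a description. Counts at an unadjusted p under 0.05 are given below without the share of all genes at that threshold, so nothing is read from them. In the fit of all 13803 genes with limma, 11.5% of genes passed an adjusted p of 0.05. Of all genes tested, 5.95% passed as higher and 5.54% as lower in SALL4-sh, and the median log2 difference was 0.02. Fitted with no filter on dim genes, 2.51% of 18404 genes passed. The filtered fit held 821 higher and 764 lower genes. Cyclic loess made these 665 and 859, and quantile normalization 778 and 832, so that the larger side turned. The counts also moved with the array left out. Without Scr-sh replicate 2 the fit called 1945 genes and without Scr-sh replicate 1 it called 1000. The call total was 865 without Scr-sh replicate 3, and 897, 768 and 706 without SALL4-sh replicates 1, 2 and 3.

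**Figure D3:**
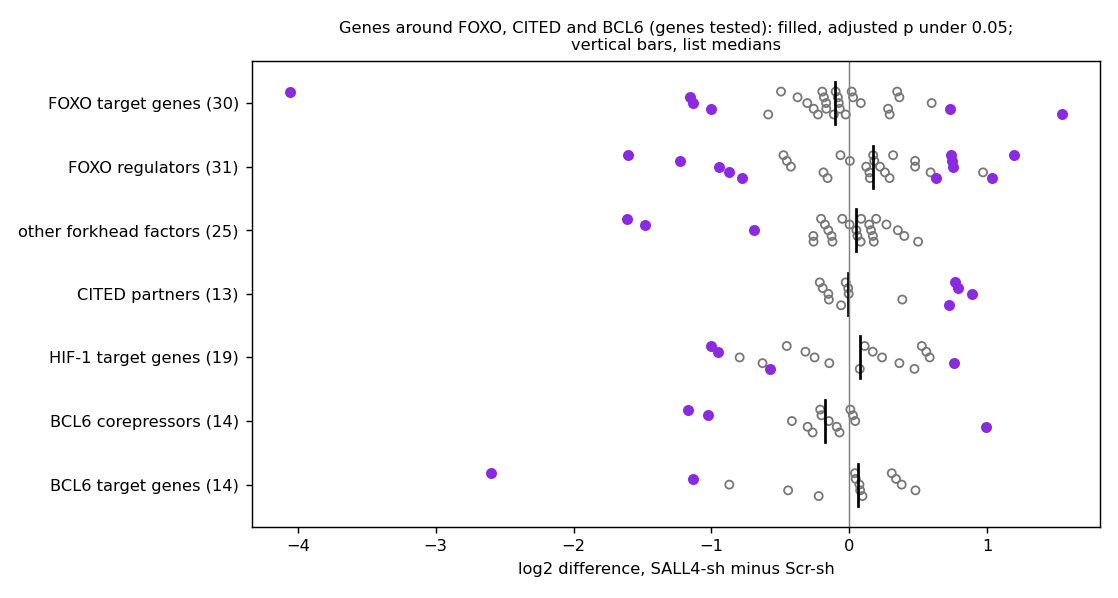
Log2 difference, SALL4-sh minus Scr-sh, of every gene tested in 7 lists around FOXO, CITED and BCL6, with the number of genes tested in brackets. Filled points passed an adjusted p of 0.05 from limma, and vertical bars are list medians. The FOXO regulators hold 6 filled points above 0 and 5 below, the CITED partners 4 above and none below, and the lowest point is TXNIP at -4.06.

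Of 30 FOXO target genes tested, 2 rose and 4 fell, 20% beside 11.5% of all genes tested. The median log2 difference of the list was -0.11. A further 9 targets were too dim to be tested, among them PDK4, PCK1, FBXO32, TRIM63 and TNFSF10 at the floor on all 6 arrays. The calls lay in 3 functional groups. In oxidant defence, TXNIP, the inhibitor of thioredoxin, fell from 488 ± 83.0 to 29.6 ± 7.77 (SD, n = 3 each), a log2 difference of -4.06 (adjusted p = 0.000133 from limma). In the same group SESN1, a stress-induced inhibitor of mTOR signaling, rose by 1.54 on the log2 scale, from 78.1 ± 30.5 to 217 ± 18.2. SOD2, the mitochondrial superoxide dismutase, rose by 0.73, and CAT and PRDX3 did not pass the test (log2 differences of -0.03 and 0.03). In the cell cycle group, CDKN1B, the CDK inhibitor p27, fell from 177 ± 26.1 to 79.7 ± 0.182 (adjusted p = 0.00396 from limma), and MXI1, an antagonist of MYC, fell by 1.00 on the log2 scale. CDKN1A, the related inhibitor p21, had a log2 difference of 0.08 and did not pass. In metabolism, EIF4EBP1, which restrains cap-dependent translation, fell by 1.15. No gene of apoptosis (5 tested) or of autophagy and protein breakdown (5 tested) passed limma, and at an unadjusted p under 0.05 these groups had 2 and 1. BCL2L11, the apoptosis inducer BIM, came closest with a log2 difference of -0.59 (adjusted p = 0.0581 from limma). The calls of TXNIP and CDKN1B held in each of the 15 alternatives, that of SESN1 in 13, of MXI1 in 10, and of SOD2 and EIF4EBP1 in 8. With 1 array left out, the list held 3 calls in place of 6 without SALL4-sh replicate 1, SALL4-sh replicate 3 or Scr-sh replicate 1. It held 2 with no filter and 2 by the test that the study names.

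Of 31 genes that act on FOXO proteins, 6 rose and 5 fell, 35.5% of those tested, with a median log2 difference of 0.17. Of the enzymes that modify FOXO proteins, 9 of 17 passed (52.9%, beside 11.5% of all genes tested). As the list was written with earlier results known, nothing is read from this share. USP7, which removes ubiquitin from FOXO4 and from MDM2, rose from 221 ± 30.3 to 451 ± 23.9 (SD, n = 3 each; adjusted p = 0.00566 from limma). MAPK8, the stress kinase JNK1, rose by 1.20 on the log2 scale, CSNK1A1, a casein kinase that phosphorylates FOXO1, by 0.75, and STK4, which phosphorylates FOXO proteins under oxidant stress, by 0.75. CDK2, the S phase kinase that phosphorylates FOXO1, fell from 97.0 ± 9.98 to 31.8 ± 1.34 (adjusted p = 0.000889 from limma). KAT2B, an acetyltransferase, fell by 1.23 on the log2 scale. SKP2 and MDM2, subunit and enzyme of ubiquitin ligases that mark FOXO proteins for breakdown, fell by 0.87 and 0.94, and PRMT1, an arginine methyltransferase, by 0.78. SIRT1, a deacetylase of FOXO proteins, had a log2 difference of 0.59 and did not pass (adjusted p = 0.0599 from limma). Among the YWHA adaptors, SFN of the same family and the export receptor XPO1, YWHAG and YWHAZ rose by 0.74 and 0.63. The other 6 did not pass. YWHAH, whose groups did not overlap, and YWHAE had log2 differences of -0.45 and -0.16. Those of YWHAB, XPO1, SFN and YWHAQ were 0.29, 0.22, 0.17 and 0.12. None of the 6 PI3 kinase, AKT and SGK genes tested passed limma (3 at an unadjusted p under 0.05), with AKT1 at 0.48 and AKT2 at 0.00. The calls of CDK2 and SKP2 held in each of the 15 alternatives, that of USP7 in 14, and the others in 7 to 13. The whole list held 5 calls with no filter and 3 by the test that the study names. With single arrays left out the list held 5 calls without Scr-sh replicate 3, 6 without SALL4-sh replicate 1 or 2, 7 without SALL4-sh replicate 3, and 9 and 13 without Scr-sh replicates 1 and 2.

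**Figure D4:**
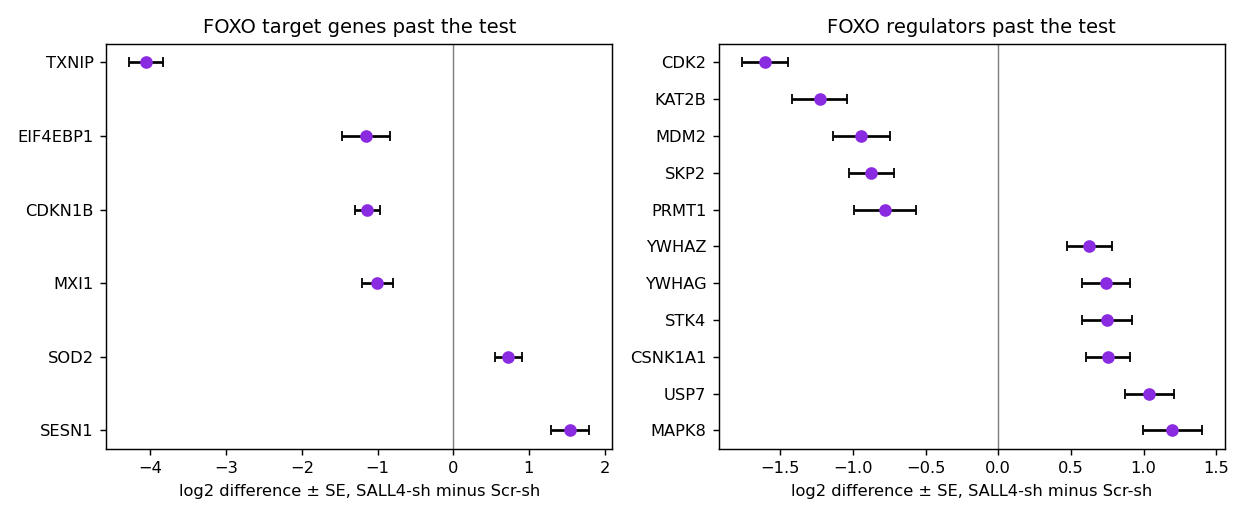
Log2 difference, SALL4-sh minus Scr-sh, of the 6 FOXO target genes (left) and 11 FOXO regulators (right) that passed an adjusted p of 0.05 from limma. Points and whiskers are the difference and its standard error from the filtered fit (n = 3 arrays per group). TXNIP at -4.06 and SESN1 at 1.54 are the ends of the left panel, and CDK2 at -1.61 and MAPK8 at 1.20 those of the right panel.

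Of 25 other forkhead genes tested, 3 fell and none rose. These were 12% of those tested, near the 11.5% of all genes tested. FOXN3, a repressor linked to the DNA damage checkpoint, fell from 71.4 ± 8.92 to 23.3 ± 2.28 (SD, n = 3 each; adjusted p = 0.00123 from limma). FOXM1, the driver of mitotic genes that FOXO3 opposes, fell from 119 ± 13.3 to 42.4 ± 2.61 (adjusted p = 0.00133 from limma). Both calls held in each of the 15 alternatives. FOXP2 fell by 0.69 on the log2 scale, a call that held in 6. FOXA1 and FOXA2, forkhead factors of lung epithelium, had log2 differences of -0.12 and 0.17 and did not pass. The range of calls with 1 array left out was 2 to 3.

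Of 13 partners of the CITED proteins tested, 4 rose and none fell, 30.8% beside 11.5% of all genes tested. The median log2 difference of the list was -0.01. TFAP2C, a factor that CITED proteins coactivate, rose from 78.8 ± 2.02 to 148 ± 23.5 (SD, n = 3 each; adjusted p = 0.0113 from limma). HIF1A and ARNT, the subunits of HIF-1, rose by 0.73 and 0.77 on the log2 scale, and PPARA, a nuclear receptor that CITED2 coactivates, by 0.79. CREBBP and EP300, which encode CBP and p300, had log2 differences of -0.21 and -0.19 and did not pass. TFAP2C held its call in 13 of the 15 alternatives and the other 3 in 8 or 9. The list held 1 call without Scr-sh replicate 3 or SALL4-sh replicate 2, 2 without Scr-sh replicate 1, SALL4-sh replicate 1 or SALL4-sh replicate 3, and 3 without Scr-sh replicate 2.

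Of 19 HIF-1 target genes tested, 1 rose and 3 fell, 21.1% beside 11.5% of all genes tested. The median log2 difference of the list was 0.08. P4HA1, a collagen prolyl hydroxylase, fell from 719 ± 55.8 to 373 ± 27.9 (SD, n = 3 each; adjusted p = 0.00624 from limma), and this call held in each of the 15 alternatives. PGK1, a glycolytic kinase, fell by 0.57 on the log2 scale, and MXI1, which is also in the FOXO list, is the third. KDM3A, a histone demethylase, rose by 0.76. VEGFA, which drives vessel growth, had a log2 difference of 0.08 and LDHA, lactate dehydrogenase, of 0.17, and neither passed. At an unadjusted p under 0.05 from limma the list had 11 of 19 genes, in both directions. The share of all genes at this unadjusted threshold is not given, so nothing is read from this count. Among those short of the adjusted threshold, SLC2A1 had -0.80 (adjusted p = 0.0511 from limma), and P4HA2 and EGLN1 had 0.58 and 0.56. The calls of PGK1, KDM3A and MXI1 held in 6, 9 and 10 alternatives. The list held 1 call without Scr-sh replicate 1, SALL4-sh replicate 1 or SALL4-sh replicate 3, 2 without Scr-sh replicate 3 or SALL4-sh replicate 2, and 6 without Scr-sh replicate 2.

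Of 14 BCL6 corepressor genes tested, 1 rose and 2 fell, 21.4% beside 11.5% of all genes tested. The median log2 difference of the list was -0.18. TBL1X and TBL1XR1, paired subunits of the NCOR complex, fell by 1.17 and 1.03 on the log2 scale (adjusted p = 0.0156 and 0.0177 from limma), and PCGF1, a subunit of the BCOR complex, rose by 0.99. BCOR and HDAC3 had log2 differences of 0.01 and -0.07 and did not pass. These calls held in 9 or 10 of the 15 alternatives. Without Scr-sh replicate 3 or SALL4-sh replicate 3 limma called 0 of the list (3 and 4 at an unadjusted p under 0.05), and without SALL4-sh replicate 2 it called 1.

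Of 14 genes that BCL6 is known to repress, none rose and 2 fell, 14.3% beside 11.5% of all genes tested. The median log2 difference of the list was 0.06. The genes that fell were CDKN1B, already given among the FOXO targets, and CXCL10, a chemokine induced by interferon. CXCL10 had intensities of 22.2, 156 and 32.8 in Scr-sh and stood at the floor on all 3 SALL4-sh arrays, so that it was at least 6.05-fold lower. Scr-sh replicate 2 held the highest CXCL10 value, and without it the log2 difference was -1.75, also limited by the floor. The call of CXCL10 held in 10 of the 15 alternatives and was lost with no filter, by the test that the study names and without any 1 of the SALL4-sh arrays. PRDM1, the plasma cell factor that BCL6 holds down in B cells, ranged from 40.6 to 83.4 in Scr-sh and from 42.9 to 112 in SALL4-sh, and the groups overlapped. ID2, an inhibitor of helix-loop-helix factors, had a log2 difference of -0.87 and did not pass (adjusted p = 0.0687 from limma). The list held 1 call without SALL4-sh replicate 1 or 2.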

How the data were processed

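RNA of 6 H661 samples was hybridised to Affymetrix arrays after labelling of 5 µg of total RNA. The authors deposited normalized intensity values of 32321 probe sets on a linear scale with a floor of 8. RMA is named, without a version, in the submitters' processing notes. A floor compresses differences of dim genes.

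Log2 of the intensity was taken. Of the probe sets, 19158 had 1 symbol in the platform annotation, 1388 had several and 11775 had none listed. The brightest probe set carried each of 18404 genes. SALL4-sh was tested against Scr-sh by lmFit and eBayes of limma 3.58.1 (R 4.3.3), with Benjamini-Hochberg adjustment over all genes tested and a threshold of 0.05, after the lowest 25% of genes by mean log2 intensity were left out. This filter was used because 3893 genes read the floor value on every array and show no variance. It also left out dim genes with some values above the floor. The prior degrees of freedom were 5.33 with the filter and 0.422 without it. Standard errors of the 7 genes come from the fit of all 18404 genes with no filter, where they stay close to the spread of the gene itself, and those of the list genes and SALL4 from the filtered fit, which draws small errors up and large ones down. The test was checked on simulated data. Promoters came from RefSeq (GRCh38.p14), matched by symbol for 7 of 7 genes. The array files name no build. Arrays have no read depth, and precision is set by how many were hybridised.

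The members and lists were chosen with earlier results of these data known. Genes named are the 7 members, SALL4, up to 4 higher and 4 lower per list by smallest adjusted p, and the 3 genes that correlate best with BCL6, CITED2 and FOXO1. STK4, YWHAZ, PRMT1 and the genes given as not passing were named after their values were seen. Of 15 alternatives, 6 leave out 1 array each. The others are 3 normalizations (median centring, cyclic loess, quantile), no filter or a filter at the 50th percentile, eBayes with trend and robust, the one-way ANOVA that the study names, the replicate number as a block, and averaging all probe sets of a gene.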

Additional observations from a re-analysis of the deposited data

How the results depend on the processing

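Every alternative kept the direction of SALL4 (log2 difference -2.07 to -1.87) and its call, by limma in 14 of the 15 and by one-way ANOVA in the other. Without a filter on dim genes 462 genes were called, and the one-way ANOVA named by the study called 257. In the same order, the calls were 2 and 2 of the FOXO targets, 5 and 3 of the FOXO regulators, 0 and 0 of the CITED partners, 2 and 1 of the HIF-1 targets, 0 and 0 of the BCL6 corepressors and 1 and 1 of the BCL6 targets. The counts of 0 stood beside 5 and 4 CITED partners, and 4 and 4 corepressors, at an unadjusted p under 0.05. Without the filter the prior degrees of freedom were 0.422 against 5.33, and the adjustment ran over 18404 genes against 13803. The cause of these changes in the counts was not tested. With trend and robust, 7 HIF-1 targets were called. With 1 array left out, the number of calls ran from 706 to 1945 over all genes, 3 to 6 for FOXO targets, 5 to 13 for FOXO regulators, 2 to 3 for other forkhead genes, 1 to 3 for CITED partners, 1 to 6 for HIF-1 targets, 0 to 3 for BCL6 corepressors and 1 to 2 for BCL6 targets. The log2 differences ran from 0.05 to 0.25 for FOXO1, -0.37 to 0.06 for FOXO3, -0.47 to -0.08 for FOXO4, -0.20 to 0.11 for CITED1, -0.53 to -0.45 for CITED2, -0.48 to -0.19 for CITED4 and -1.70 to -1.17 for BCL6. After cyclic loess that of CITED2 was -0.59, a move larger than the SD between replicates, and the cause was not tested. The labels give both groups replicate numbers 1 to 3. With the replicate number as a block 1706 genes were called, 1471 of them among the 1585 called without it. Deviations of same-numbered arrays correlated at 0.144, 0.113 and -0.000886, and those of arrays with unlike numbers at -0.152 to 0.0341. Whether arrays of the same number share a batch or a culture was not tested. Signal near the floor limits FOXO3, FOXO4, CITED1 and CITED4.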
